A study of Rattus norvegicus with 26 samples.

Results

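Blood clotting, the dissolution of clots and complement are run by related plasma proteases, their cofactors, receptors and inhibitors. The 42 rat genes described here were 4 of the tissue factor pathway, 5 contact and intrinsic factors, 7 of the common pathway and fibrinogen, 4 of the protein C system, 6 plasma protease inhibitors, 4 of the plasminogen system and 12 of complement. They were taken by name from the 41012 gene probes of the array, and for the 14 genes with several probes the brightest over all 26 arrays was used. All 42 had a probe, and 32 were tested among 24442 probes, the condition being a signal well above background on all arrays of some group. The other 10 were not tested, namely *F5*, *F7*, *F9*, *F11*, *F13a1*, *Serpinc1*, *Serpind1*, *Tfpi2*, *C5* and *Cfb*.

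In the body most of these proteins are made by hepatocytes and secreted into plasma, and in the embryo the visceral endoderm makes several of them. Clotting starts when tissue factor on a cell surface binds factor VII, runs through factor X to thrombin, and ends when thrombin cuts fibrinogen into fibrin. The protein C system turns thrombin into an anticoagulant, plasmin dissolves fibrin, and complement marks and lyses cells unless membrane regulators stop it.

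The samples were rat multipotent adult progenitor cells (rMAPC), female Fischer bone marrow clones that express Oct4, differentiated toward smooth muscle-like cells. Line Cl19 is labelled 3 week and line 3c3 is labelled E18 for age, and each line is 1 clone. Undifferentiated cells (d0) were compared with cells on d2, d4 and d6 in basal rMAPC medium with TGFβ1 and PDGF-BB and without serum, with 3 arrays per line and day. Commercial rat aortic smooth muscle RNA (primary SMC) was run on 2 arrays. No culture without the growth factors on the later days was analysed here, so day and treatment cannot be told apart. The labels and the methods name different suppliers for the primary SMC RNA, and the labels call it rat aortic RNA. The methods say only that it was run in duplicate, so its 2 arrays may hold 1 RNA. The methods call the 3 arrays of a line and day biological replicates but do not say whether they came from separate cultures. The p-values therefore measure the spread between these samples.

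Every level below is a log2 intensity after quantile normalization over the 26 arrays, given in the order of replicates 1, 2 and 3. Differences are log2 differences ± the standard error of 1 limma fit, and "adjusted p" is the Benjamini-Hochberg value over the 24442 probes, with 0.05 as threshold. An array "measured" a gene when the scanner software put its probe well above background, and where no array of a group did, a fold is given as a lower bound ("at least"). Between 43.2% and 61.4% of probes were well above background per array. The 4 arrays of 3c3 replicate 3 shared a slide with higher negative control signal (62.5 to 79.0, against 44.9 to 48.0 elsewhere). The Cl19 d2 replicate 1 array lay closer to the 3c3 d2 arrays (root mean square difference 0.382 to 0.537) than to the other Cl19 d2 arrays (0.876 and 0.917), so the called Cl19 d2 changes were refitted without it. Each line was scanned on its own day, as was the primary SMC RNA, so level differences between them cannot be told apart from scan day. The 4 days of a replicate lay on 1 slide in fixed positions, so day and position cannot be told apart either.

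By d6 the larger share of the tested genes was higher than on d0 in both lines. The genes had been chosen with earlier results of these data known, so the shares below describe these genes only. In such bulk RNA, fewer cells of a type and less RNA per cell cannot be told apart. In Cl19, 21 of 32 rose and 5 fell, beside 22.0% of all probes higher and 30.3% lower. In 3c3, 19 rose and 4 fell, beside 19.7% and 28.6%. The median d6 change of the 32 was 1.67 in Cl19 and 1.96 in 3c3, beside −0.20 and −0.21 over all tested probes. Several genes were tested only through groups where they were high, so these counts are a description. Among them were *F10*, *Fgb*, *Plau*, *Plg*, *Serpina1*, *C6* and *Cfd*, whose p-values for a rise from d0 are no separate support. With all 42 genes and all 41012 probes, 18 rose and 6 fell in Cl19, beside 13.02% and 17.71% of all probes, and 19 rose and 3 fell in 3c3, beside 11.52% and 16.41%. The medians were then 1.06 and 1.00, beside −0.06 and −0.02 over all probes.

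The changes began early. On d2, 14 genes were higher and 4 lower in Cl19, beside 11.2% and 11.5% of all probes, and without the Cl19 d2 replicate 1 array these were 14 and 5. In 3c3, 15 were higher and 6 lower on d2, beside 9.80% and 9.27%. In both lines 12 genes were higher on d2, namely *F2*, *F3*, *F10*, *Fga*, *Fgb*, *Proc*, *Procr*, *Serpinf2*, *Plat*, *Plau*, *Cd55* and *Cd59*, and 4 were lower, namely *Pros1*, *Serping1*, *Thbd* and *Cfi*. How many of all probes passed in both lines was not counted, so these shared counts are a description. With 1 array left out, the d2 calls of *Pros1* in 3c3 (5 of 26 omissions, adjusted p up to 0.11) and of *Serpinf2* in Cl19 (2, up to 0.070) and 3c3 (1, up to 0.068) were lost. By limma's F-test over the 4 days, 25 genes changed in Cl19, where 13276 of the 24442 probes did, and 27 in 3c3, where 12224 did.

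*F3* encodes tissue factor, the membrane receptor that starts clotting, and it was measured on every array, d0 included. In Cl19 it was at 12.28, 12.46 and 12.17 on d0 and at 14.78, 15.00 and 14.22 on d6. In 3c3 the d0 arrays were at 12.09, 12.72 and 12.56 and the d6 arrays at 14.01, 14.42 and 14.40. The d6 arrays were above the d0 arrays in both lines, with changes of 2.36 ± 0.25 in Cl19 (adjusted p 2.4e-07) and 1.82 ± 0.25 in 3c3 (9.3e-06). Most of the rise was present on d4 in Cl19 (2.24 ± 0.25) and on d2 in 3c3 (1.34 ± 0.25).

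*Tfpi*, the inhibitor of the tissue factor and factor VII complex, also rose, with a wide spread between replicates. In Cl19 it was at 5.36, 6.61 and 5.19 on d0 and at 6.56, 9.59 and 7.29 on d6. In 3c3 it went from 5.08, 7.04 and 5.65 to 8.34, 10.98 and 8.89. Replicate 2 was the highest on every day of both lines, so the Cl19 groups overlapped although d6 exceeded d0 on each slide, by 1.20, 2.98 and 2.10. The d6 change was 2.10 ± 0.84 in Cl19 (adjusted p 0.042, and 5.2e-05 with slide as a fixed block) and 3.48 ± 0.84 in 3c3 (0.0019). The Cl19 call was lost in 3 of 26 omissions of 1 array (without Cl19 d6 replicate 2 the change was 1.21, without d0 replicate 1 it was 1.92 and without d0 replicate 3 it was 1.83), and without d6 replicate 2 the 3c3 change was 2.69. A second *Tfpi* probe rose by 1.63 in Cl19 and 3.37 in 3c3. *F7*, the plasma partner of tissue factor, was measured on 2 Cl19 d0 arrays (3.41 and 2.91) and on no other array, and *Tfpi2* was measured on none.

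*F10* encodes factor X, which cuts prothrombin, and it rose by d2 in both lines. In Cl19 the d0 arrays were at 2.11, 1.99 and 1.13, none of them measured, the d2 arrays at 6.46, 6.83 and 7.82, and the d6 arrays at 5.86, 4.31 and 7.81. In 3c3 it went from 1.11, 0.82 and 4.10 on d0 (1 array measured) to 7.51, 6.25 and 6.64 on d2 and back to 3.50, 1.01 and 3.99 on d6 (1 measured). Both lines were thus higher on d2, by 5.29 ± 0.89 in Cl19 (at least 25.2-fold, adjusted p 0.0002; 5.58 without the Cl19 d2 replicate 1 array) and by 4.79 ± 0.89 in 3c3 (0.00064; 4.20 to 5.84 with 1 array left out). Cl19 still exceeded d0 on d6, at least 12.2-fold (4.25 ± 0.89, adjusted p 0.00044; 3.34 without d6 replicate 3 and 5.09 without d6 replicate 2), whereas the 3c3 d6 arrays overlapped those of d0 (0.82 ± 0.89, 0.47). The d6 change itself did not differ between the lines past the threshold (3.43 ± 1.25, adjusted p 0.067), but did with slide as a fixed block (0.0386).

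*F2* encodes prothrombin. Its Cl19 arrays were at 7.56, 8.08 and 8.36 on d0, at 11.83, 10.48 and 10.99 on d4 and at 9.89, 9.09 and 9.50 on d6. In 3c3 they were at 6.24, 6.42 and 5.97 on d0, 9.74, 9.98 and 9.87 on d2 and 9.13, 10.11 and 10.28 on d6. The later days did not overlap d0 in either line. The d6 change was 1.49 ± 0.37 in Cl19 (adjusted p 0.0019) and 3.63 ± 0.37 in 3c3 (1.8e-07), a difference of −2.13 ± 0.52 (0.0061; 0.075 without the slide of 3c3 replicate 3). The lines began 1.79 ± 0.37 apart on d0, with Cl19 higher (adjusted p 0.0075; 0.055 in 1 of 26 omissions), and on d6 their ranges overlapped.

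Fibrinogen is assembled from 3 chains, and the genes of those chains moved differently. *Fgb*, the beta chain, was at 2.06, 2.46 and 2.57 in Cl19 on d0 (2 arrays measured) and at 5.30, 5.58 and 6.01 on d6, and in 3c3 at 1.53, 1.45 and 0.37 (none measured) and at 8.54, 8.76 and 9.61. It rose by 3.27 ± 0.37 in Cl19 (adjusted p 4.8e-07) and at least 79.0-fold in 3c3 (7.85 ± 0.37, 1.2e-11; 7.16 without the slide of replicate 3), and a second tested *Fgb* probe rose by 3.96 and 7.25. *Fga*, the alpha chain, was at 4.30, 4.80 and 5.07 in Cl19 on d0, at 8.95, 8.01 and 7.87 on d4 and back at 5.02, 4.30 and 6.28 on d6, which overlapped d0 (0.48 ± 0.42, adjusted p 0.37). In 3c3 *Fga* was at 4.24, 4.53 and 4.97 on d0 and at 8.31, 8.40 and 8.91 on d6, a rise of 3.96 ± 0.42 (3.7e-07). The d6 change differed between the lines for both genes, by −4.59 ± 0.53 for *Fgb* (5.2e-06; −3.89 without the slide of 3c3 replicate 3) and by −3.48 ± 0.60 for *Fga* (0.00034). *Fgg*, the gamma chain, did not pass the threshold on d6 in either line (0.59 ± 0.29, adjusted p 0.10, in Cl19 and −0.58 ± 0.29, 0.11, in 3c3), but with slide as a fixed block it passed in both (adjusted p 0.0187 and 0.0209). It was lower in 3c3 on d4 (−1.82 ± 0.29, 8.6e-05). Of the other genes of the common pathway, *F5* was measured on 7 of 26 arrays, none of them all 3 of a group, and *F13a1*, the subunit of the enzyme that crosslinks fibrin, on none.

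To set these courses beside the sequence in front of the genes, the 250 bases before the RefSeq gene start (assembly GRCr8) were searched on both strands for 5 short motifs. Promoters were listed for 30 of the 42 genes. TGTTTAC, the core of forkhead sites, was found in 3.2% of 33469 promoters and in 3 of the 30, AGATAA (bound by GATA factors) in 10.3% and 1, CAGACA (SMAD proteins) in 17.2% and 9, and TGANTCA (AP-1) in 6.3% and 5. GTTAAT, one arm of the HNF1 site, was added after the sequences had been read. It was found in 6.5% of all promoters and in 7 of the 30. Because it was picked from these sequences, its counts among them cannot show an excess over all promoters. Among the 9 promoters of genes that rose on d2 in both lines, 4 held GTTAAT (*F2*, *Fga*, *Fgb* and *Proc*), 3 held CAGACA, 2 TGANTCA, 1 TGTTTAC and none AGATAA. These are matches of letters and not tested sites, and the motifs do not overlap in the sequences shown. The promoters of *F2*, *Fgb*, *Proc* and *Plau* are shown as examples from these 9 and do not stand for all of them. Of the 4 shown, 3 hold GTTAAT, whereas 4 of the 9 do, and that of *Plau* holds none of the 5. Capitals mark matches, read 5′ to 3′ on the strand of the gene. *F2* (chr3:98065247-98065496, minus strand) holds GTTAAT, *Fgb* (chr2:170700876-170701125, minus) holds in order the AP-1, SMAD, forkhead and HNF1 letters, *Proc* (chr18:24048942-24049191, minus) holds the SMAD and HNF1 letters, and *Plau* lies at chr15:3511988-3512237 (minus). All but the AP-1 match lie on the opposite strand and so read as reverse complements, TGTCTG for SMAD, GTAAACA for forkhead and ATTAAC for HNF1.
F2: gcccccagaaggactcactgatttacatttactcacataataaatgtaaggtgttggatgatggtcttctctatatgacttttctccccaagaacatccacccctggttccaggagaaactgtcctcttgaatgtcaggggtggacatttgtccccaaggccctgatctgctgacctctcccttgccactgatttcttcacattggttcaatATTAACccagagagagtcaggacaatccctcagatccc
Fgb: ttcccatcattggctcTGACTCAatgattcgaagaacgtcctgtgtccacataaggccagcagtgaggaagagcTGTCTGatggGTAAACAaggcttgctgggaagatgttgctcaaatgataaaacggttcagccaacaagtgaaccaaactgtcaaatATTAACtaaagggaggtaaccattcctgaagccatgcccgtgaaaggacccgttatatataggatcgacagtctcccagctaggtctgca
Proc: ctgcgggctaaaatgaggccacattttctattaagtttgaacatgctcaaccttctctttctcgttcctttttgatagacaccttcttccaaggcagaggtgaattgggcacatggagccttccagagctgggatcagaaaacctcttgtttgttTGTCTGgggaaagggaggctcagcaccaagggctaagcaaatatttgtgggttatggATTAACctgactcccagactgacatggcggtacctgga
Plau: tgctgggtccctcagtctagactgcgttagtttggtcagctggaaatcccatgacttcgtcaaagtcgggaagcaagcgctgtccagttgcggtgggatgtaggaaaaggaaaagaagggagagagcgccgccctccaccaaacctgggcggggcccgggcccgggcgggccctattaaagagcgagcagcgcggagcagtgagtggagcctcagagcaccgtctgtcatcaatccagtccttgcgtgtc

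Of the contact and intrinsic factors, *F8*, the cofactor of factor IX, rose modestly in both lines. It was at 4.00, 3.20 and 3.52 in Cl19 on d0 and at 4.68, 5.32 and 4.79 on d6, and in 3c3 at 4.45, 4.42 and 4.29 and at 5.08, 6.00 and 5.70. The days did not overlap in either line (1.36 ± 0.28, adjusted p 0.00036, and 1.21 ± 0.28, 0.0013). The d2 rise of *F8* in Cl19 (0.86 ± 0.28, 0.03) was lost without the Cl19 d2 replicate 1 array (0.63, 0.13). *Vwf*, the carrier of factor VIII, had Cl19 means of 6.64 (d0), 5.59 (d2), 7.47 (d4) and 5.42 (d6), and its d6 change did not pass in Cl19 (−1.21 ± 0.51, adjusted p 0.055, and 0.0496 with slide as a fixed block) or in 3c3 (0.96 ± 0.51, 0.14). The difference of those changes passed (−2.17 ± 0.73, 0.045) but was lost in 18 of 26 omissions of 1 array, where it ran from −2.45 to −1.95 with an adjusted p of up to 0.11. *F12*, which starts the contact pathway, had d6 differences of −0.13 ± 0.79 in Cl19 and −0.43 ± 0.79 in 3c3 (adjusted p 0.91 and 0.69). *F9* and *F11*, the proteases of this pathway, were measured on no array.

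The protein C system held rises and falls in the same samples. *Proc* encodes protein C, the zymogen of the anticoagulant protease. It was at 4.68, 4.73 and 4.84 in Cl19 on d0, at 9.16, 9.40 and 9.17 on d2 and at 10.34, 9.53 and 10.36 on d6. The 3c3 arrays were at 4.30, 3.94 and 3.82 on d0, at 9.85, 8.93 and 9.30 on d2 and at 10.98, 11.61 and 11.57 on d6. No array of d2 or d6 came near those of d0, and the d6 change was 5.33 ± 0.43 in Cl19 (40.2-fold, adjusted p 5.7e-09) and 7.36 ± 0.43 in 3c3 (165-fold, 1.4e-10). The 3c3 change was the larger by 2.04 (−2.04 ± 0.61 for Cl19 minus 3c3, 0.024), a call lost in 5 of 26 omissions (−2.24 to −1.76, adjusted p up to 0.067).

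*Thbd*, thrombomodulin, which lets thrombin activate protein C and is a classical endothelial surface protein, went the opposite way. In Cl19 it fell from 12.28, 12.21 and 12.30 on d0 through 10.76, 8.64 and 9.08 on d2 to 6.30, 6.63 and 6.55 on d6. In 3c3 it went from 12.56, 12.62 and 12.49 to 9.88, 10.97 and 10.63 on d2, returned to 11.85, 12.44 and 12.23 on d4 and was at 9.80, 11.67 and 11.21 on d6. The d6 fall was far deeper in Cl19, −5.77 ± 0.46 (54.7-fold, adjusted p 4.9e-09), than in 3c3, −1.66 ± 0.46 (3.16-fold, 0.0056), and the difference was −4.11 ± 0.65 (0.00016). Without the Cl19 d2 replicate 1 array, whose value of 10.76 lay among those of 3c3, the Cl19 d2 change was −3.41 in place of −2.77.

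*Procr*, the receptor that presents protein C to thrombomodulin, rose from 7.79, 7.75 and 7.94 to 9.35, 10.06 and 9.52 in Cl19 and in 3c3 from a mean of 7.04 ± 0.14 (SD, n = 3, lowest 6.91, highest 7.19) to 10.73, 10.42 and 10.58. All d6 arrays were above all d0 arrays (1.82 ± 0.17, adjusted p 5.5e-08, and 3.54 ± 0.17, 2.1e-11), the changes differed by −1.72 ± 0.25 (5.7e-05), and a second probe gave 1.90 and 3.50. *Pros1*, protein S, the cofactor of activated protein C, fell from 9.51, 9.46 and 9.60 to 7.83, 7.40 and 7.23 in Cl19 and from 9.59, 9.45 and 9.61 to 8.93, 8.64 and 8.93 in 3c3. The fall was −2.04 ± 0.22 in Cl19 (3.1e-07) and −0.72 ± 0.22 in 3c3 (0.013; without 3c3 d6 replicate 2 it was −0.62, adjusted p 0.055), a difference of −1.32 ± 0.32 (0.0057). A second, dimmer *Pros1* probe, well above background on 12 arrays, gave −2.72 in Cl19 (adjusted p 0.0435) and −1.38 in 3c3 (0.32). Both lines held almost the same *Pros1* level on d0, where their arrays overlapped.

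**Figure D1:**
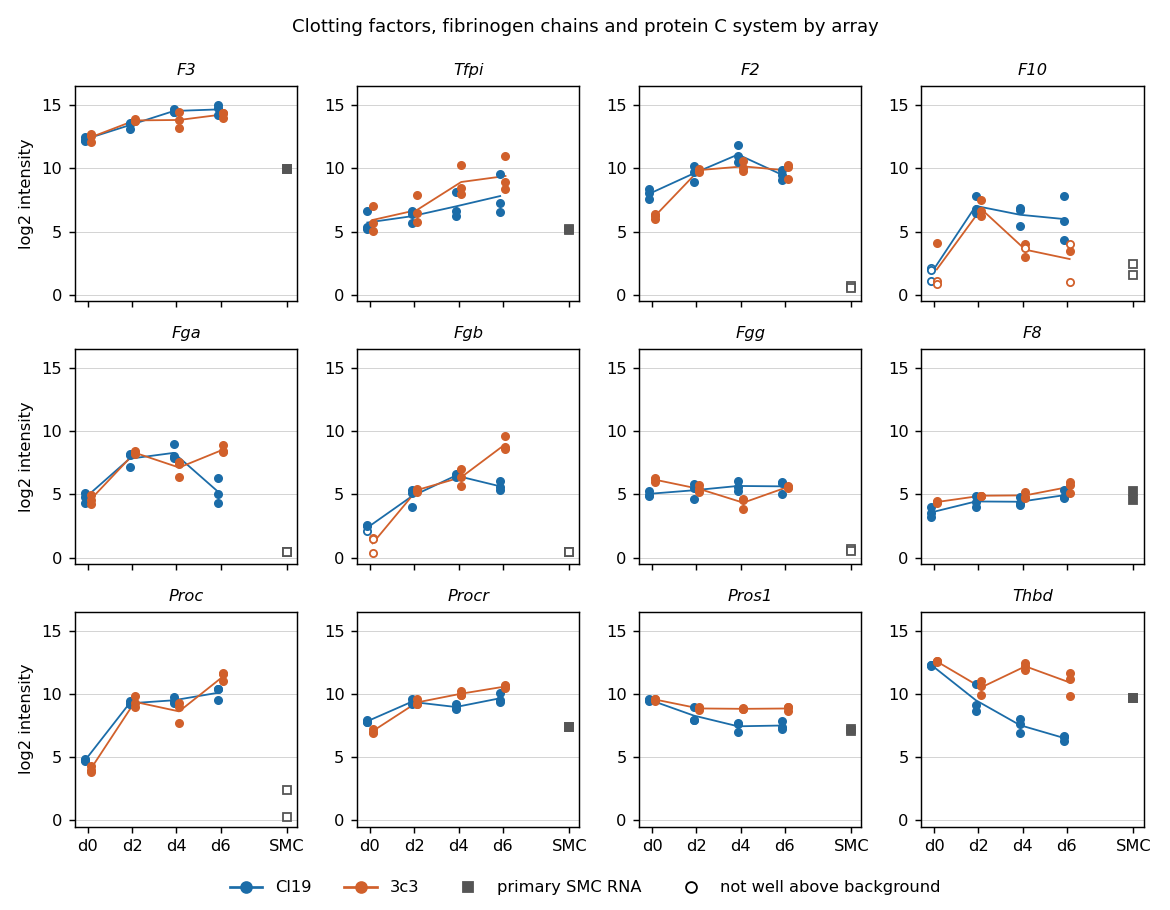
Log2 intensity (vertical axis, quantile-normalized) of 12 clotting and protein C genes on each array, by day for Cl19 and 3c3 and for the primary SMC RNA (SMC). Points are arrays, lines join group means, and open points were not well above background; *F2*, *Fga*, *Fgb*, *F10* and *Proc* are higher on d2 than d0 in both lines, *F10* returns toward its d0 level in 3c3, and *Thbd* falls to 6.30 to 6.63 in Cl19 while 3c3 stays at 9.80 or above.

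Among the plasma protease inhibitors, *A2m* (alpha-2-macroglobulin, which traps proteases of many kinds) moved furthest by d6 in Cl19, but not in 3c3. In Cl19 it was at 1.85, 2.17 and 2.81 on d0 (1 array measured), at 2.97, 5.51 and 5.18 on d2 and at 9.13, 9.73 and 8.85 on d6. The 3c3 arrays stood at 4.70, 4.84 and 4.77 on d0, at 1.21, 2.38 and 2.00 on d2 (none measured) and at 7.10, 4.77 and 5.59 on d6. The lines thus moved apart on d2, where Cl19 rose by 2.28 ± 0.57 (adjusted p 0.0067) and 3c3 fell at least 4.60-fold (−2.91 ± 0.57, 0.0012), a difference of 5.19 ± 0.81 (0.011). Without the Cl19 d2 replicate 1 array, at 2.97, the Cl19 change was 3.07 and the difference 5.98, and without Cl19 d2 replicate 2 the Cl19 change was 1.80 with an adjusted p of 0.053. By d6 Cl19 had risen by 6.96 ± 0.57 (7.6e-09), the 3c3 arrays overlapped d0 (1.05 ± 0.57, 0.14), and the difference was 5.91 ± 0.81 (3.8e-05; 6.55 without 3c3 d6 replicate 1).

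*Serping1* encodes the C1 inhibitor, which blocks C1r, C1s, kallikrein and factor XII. In Cl19 it fell from 10.77, 11.17 and 11.24 on d0 to 7.41, 7.55 and 8.02 on d2 and to 5.67, 5.75 and 5.81 on d6. In 3c3 it started at a mean of 8.19 ± 0.17 (SD, n = 3), with 2 arrays at 8.27 and 8.29, was at 7.31, 7.28 and 7.56 on d2 and ended at 7.43, 7.50 and 7.31. Cl19 thus began above 3c3, by 2.87 ± 0.18 (adjusted p 5.1e-08), and ended below it, after a fall of −5.32 ± 0.18 (39.8-fold, 1.2e-13) against −0.77 ± 0.18 (0.0018). The changes differed by −2.60 ± 0.26 on d2 (0.00011) and −4.55 ± 0.26 on d6 (2.4e-09). A second *Serping1* probe fell by 3.33 in Cl19, and in 3c3 it gave −0.53 with an adjusted p of 0.14. In the deposited values before normalization, the 3c3 d6 change was −0.46 (adjusted p 0.16).

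*Serpinf2*, the main plasmin inhibitor, rose in both lines, from 4.95, 4.29 and 4.82 to 5.81, 5.21 and 6.68 in Cl19 and from 4.39, 3.96 and 4.95 to 6.42, 7.13 and 7.19 in 3c3. Its d6 arrays were all above d0 (1.21 ± 0.34, adjusted p 0.0056, and 2.48 ± 0.34, 8e-06). *Serpina1*, the elastase inhibitor alpha-1-antitrypsin, was at 2.05, 2.29 and 2.93 in Cl19 on d0 (1 array measured) and at 4.58, 4.14 and 4.14 on d6, a change of 1.86 ± 0.71 (0.034) that was lost in 5 of 26 omissions of 1 array, all of Cl19 (1.67 to 2.11 over all omissions, adjusted p up to 0.098). It was measured on 11 of 26 arrays and tested only through later days, where it was high, so this p-value is no separate support. In 3c3 *Serpina1* was at 0.91, 2.29 and 3.68 on d0 and at 3.03, 2.55 and 3.33 on d6, which overlapped (0.68 ± 0.71, 0.46). *Serpinc1* (antithrombin) and *Serpind1* (heparin cofactor II) were measured on no array.

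In the plasminogen system the genes of both activators rose in both lines. *Plau* encodes urokinase, the activator that works at cell surfaces. It was at 0.96, 1.58 and 1.09 in Cl19 on d0 and at 0.73, 0.77 and 1.32 in 3c3, and no d0 array measured it. On d2 it was at 6.56, 6.43 and 6.30 in Cl19 and at 7.02, 6.50 and 6.87 in 3c3, and on d6 at 8.65, 9.58 and 9.72 and at 10.29, 9.99 and 10.17. Every later array measured it, and d6 exceeded d0 at least 123-fold in Cl19 (8.11 ± 0.28, adjusted p 1.2e-13) and at least 179-fold in 3c3 (9.21 ± 0.28, 4.5e-14). The 2 lines did not differ past the threshold in this change (−1.11 ± 0.39, 0.059), but did with slide as a fixed block (0.016).

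*Plat*, tissue plasminogen activator, which acts on fibrin, rose from 3.70, 4.07 and 4.10 to 10.81, 10.98 and 10.99 in Cl19. In 3c3 it rose from 3.10, 3.23 and 3.24 (2 arrays measured) to 9.88, 9.64 and 9.80. The arrays of a day lay close together on d0 and d6, and the change was 6.97 ± 0.48 in Cl19 (126-fold, adjusted p 6.9e-10) and 6.59 ± 0.48 in 3c3 (96.0-fold, 2.7e-09). On d2 the Cl19 arrays were at 6.60, 9.13 and 9.39, and the change was 4.42 with and 5.30 without replicate 1.

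*Plaur*, the urokinase receptor, was at 9.60, 9.46 and 9.30 in Cl19 on d0 and at 10.85, 11.60 and 10.50 on d6, and in 3c3 at 9.52, 9.34 and 9.42 and at 11.89, 12.69 and 12.21. It rose without overlap in both lines, by 1.53 ± 0.35 (adjusted p 0.001) and 2.84 ± 0.35 (2.1e-06). On d2 the 3c3 change passed (1.03 ± 0.35, 0.046) and the Cl19 change did not (−0.10 ± 0.35, 0.89), with no difference between them past the threshold (−1.13 ± 0.49, 0.59), and the 3c3 call was lost in 18 of 26 omissions of 1 array (0.97 to 1.09, adjusted p up to 0.13). The Cl19 d2 arrays were at 10.39, 9.15 and 8.50 and those of 3c3 at 10.46, 10.33 and 10.56. Replicate 1 of Cl19 thus lay among the 3c3 arrays. The Cl19 change and the difference rest in part on it, and their values without it are not given here. *Plg* encodes plasminogen itself, the zymogen that both activators cut. It was at 0.54, 0.19 and 3.04 in Cl19 on d0 (1 array measured) and at 4.41, 3.19 and 5.90 on d6, a rise of 3.24 ± 0.93 (0.0064; 2.54 to 4.13 with 1 array left out). *Plg* was measured on 10 of 26 arrays. It was tested only through later Cl19 days, where it was high, so this p-value is no separate support. In 3c3 its d6 arrays were at 2.57, 2.04 and 0.21 with 1 measured, against 0.33, 0.23 and 1.12 on d0 (1.05 ± 0.93, 0.38).

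**Figure D2:**
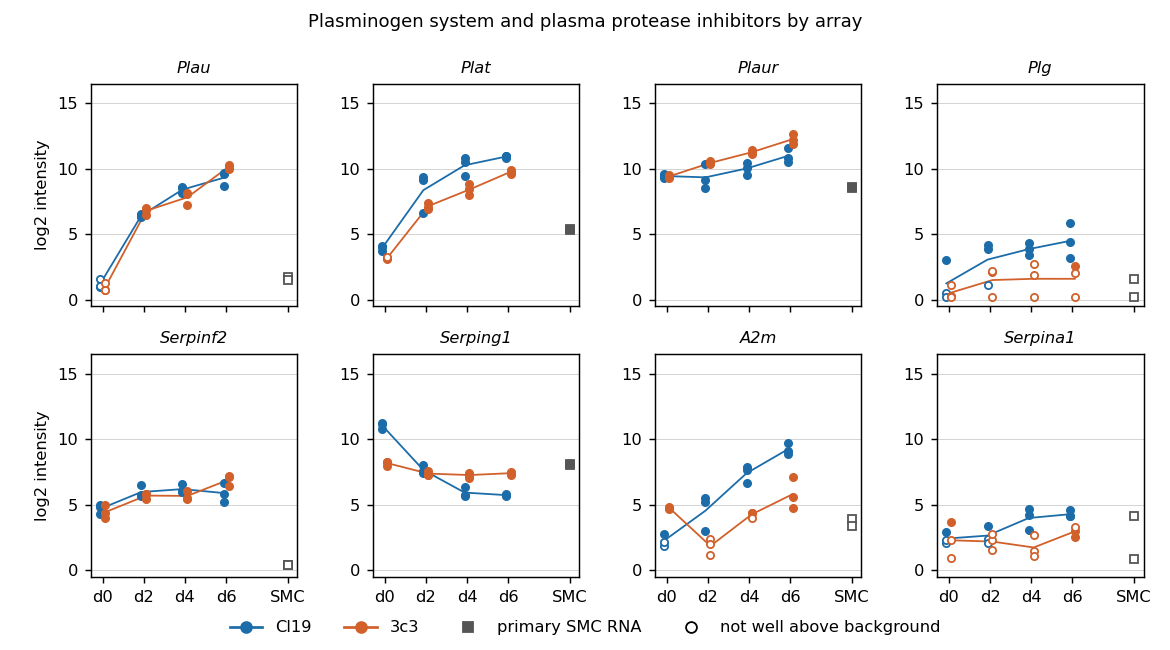
Log2 intensity (vertical axis, quantile-normalized) of 4 genes of the plasminogen system and 4 plasma protease inhibitors on each array, by day for Cl19 and 3c3 and for the primary SMC RNA (SMC), with points, lines and open symbols as in the plot of clotting genes. *Plau* and *Plat* climb together in both lines, *Serping1* drops from above 10 to below 6 in Cl19, and *A2m* is higher in 3c3 on d0 and higher in Cl19 from d2 on.

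In complement, *Cd55* and *Cd59*, the genes of membrane regulators among those described here, rose in both lines. *Cd55* encodes decay-accelerating factor, which takes apart the C3 convertases. It rose from 4.28, 4.17 and 4.42 to 8.81, 8.18 and 8.34 in Cl19 and from 2.64, 2.82 and 2.95 (1 array measured) to 6.52, 6.14 and 6.33 in 3c3. *Cd59*, which blocks the membrane attack complex, rose from 10.28, 10.44 and 10.33 to 13.05, 13.35 and 13.61 in Cl19 and from 9.92, 10.12 and 10.32 to 13.45, 13.72 and 13.37 in 3c3. For both genes every d6 array was above every d0 array. The changes were 4.16 ± 0.30 (adjusted p 1.6e-09) and 3.53 ± 0.30 (2.5e-08) for *Cd55* and 2.99 ± 0.24 (5.5e-09) and 3.40 ± 0.24 (2e-09) for *Cd59*. Most of the *Cd59* rise was present on d2, at 2.56 ± 0.24 in Cl19 (2.93 without replicate 1) and 2.27 ± 0.24 in 3c3.

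*C2*, a protease of the classical and lectin C3 convertase, was at 3.29, 3.29 and 3.46 in Cl19 on d0 and at 8.84, 9.36 and 8.36 on d6. Those of 3c3 were at 1.32, 2.49 and 2.65 on d0, with no array measured, and at 5.63, 6.44 and 6.16 on d6. It rose by 5.50 ± 0.37 in Cl19 (adjusted p 5.5e-10) and at least 10.4-fold in 3c3 (3.92 ± 0.37, 7.6e-08). The difference of 1.58 ± 0.52 (0.042) was lost in 9 of 26 omissions (1.33 to 2.00, adjusted p up to 0.12).

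*C3*, the protein on which all complement routes meet, lay on opposite sides of its d0 level in the lines by d6. In Cl19 it was at 6.51, 6.40 and 6.38 on d0, at 6.21, 4.46 and 5.34 on d2 and at 8.84, 8.33 and 8.01 on d6. In 3c3 it was at 7.15, 7.21 and 7.31 on d0, at 5.23, 4.83 and 5.30 on d4 and at 6.66, 5.44 and 6.51 on d6. Cl19 ended above d0 (1.97 ± 0.41, adjusted p 0.00046) and 3c3 below it (−1.02 ± 0.41, 0.047), and the difference was 2.99 ± 0.58 (0.0011). The 3c3 fall was lost in 18 of 26 omissions of 1 array (−1.25 to −0.64, adjusted p up to 0.24) and with slide as a fixed block (0.057).

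*C1r*, a protease of the first complement component, went in opposite directions near background. In Cl19 it was at 5.08, 2.35 and 1.74 on d0 (2 arrays measured) and at 0.21, 0.20 and 0.72 on d6 (none), at least 2.11-fold lower (−2.68 ± 0.56, adjusted p 0.00047; −1.66 without d0 replicate 1 and −3.34 without d0 replicate 3). With dim values raised to the lowest signal well above background, this change was −1.22 and did not pass (0.074). In 3c3 it was at 0.22, 0.23 and 0.23 on d0 (none measured) and at 5.22, 3.65 and 4.45 on d6, at least 3.41-fold higher (4.22 ± 0.56, 5.3e-06). The changes differed by −6.90 ± 0.79 (5.3e-06; −7.56 to −5.88 with 1 array left out), a value that rests in part on arrays below background. The d2 rise of *C1r* in 3c3 (2.43 ± 0.56, with 1 of 3 arrays measured) turned to −0.01 with dim values raised in this way. *C1s*, its partner protease, was measured on no more than 1 array of any rMAPC group.

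*Cfi*, the protease that inactivates C3b, fell early in both lines and then parted. In Cl19 it was at 4.00, 3.61 and 4.30 on d0, at 1.64, 1.60 and 2.43 on d2 (1 measured) and at 2.05, 2.04 and 1.34 on d6 (1 measured). In 3c3 it was at 3.01, 3.19 and 3.21 on d0 (2 measured), at 1.26, 0.43 and 1.95 on d2 (none) and at 5.19, 4.79 and 5.69 on d6. The d2 fall was −2.08 ± 0.49 in Cl19 (adjusted p 0.0041; −1.95 without replicate 1) and at least 1.49-fold in 3c3 (−1.92 ± 0.49, 0.0089; without 3c3 d2 replicate 2 it was −1.53, 0.058). On d6 Cl19 was lower than d0 (−2.16 ± 0.49, 0.00098) and 3c3 higher (2.09 ± 0.49, 0.0016), a difference of −4.25 ± 0.69 (0.00021).

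*Masp1*, a protease of the lectin pathway, was at 7.06, 7.55 and 7.11 in Cl19 on d0 and at 7.06, 7.20 and 6.87 on d6, which overlapped (−0.20 ± 0.43, adjusted p 0.74). In 3c3 it went from 5.20, 5.50 and 4.67 to 7.56, 8.68 and 7.82, a rise of 2.89 ± 0.43 (2e-05). The lines differed in this change by −3.09 ± 0.61 (0.0012), and on d0 Cl19 was the higher by 2.11 ± 0.43 (0.0078; up to 0.056 in 2 of 26 omissions). The 2 other tested *Masp1* probes gave 2.81 and 2.30 in 3c3.

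*C6*, a component of the membrane attack complex, was at 1.26, 1.17 and 1.58 in Cl19 on d0 (none measured) and at 3.57, 4.67 and 3.28 on d6, a rise of at least 2.75-fold (2.51 ± 0.68, adjusted p 0.0041). It was measured on 4 of 26 arrays and was tested only through Cl19 d6, where it was high, so this p-value is no separate support. In 3c3 no array measured it on any day. *Cfd*, the protease that activates factor B, was at 2.08, 1.02 and 1.09 in Cl19 on d0 (none measured) and at 3.06, 2.47 and 3.24 on d6, at least 1.46-fold higher (1.53 ± 0.61, 0.041). In 3c3 it was at 0.92, 0.29 and 0.31 on d0 (none measured) and at 3.72, 2.77 and 0.25 on d6 (2 measured), which overlapped (1.74 ± 0.61, 0.023; 2.74 without d6 replicate 3). Both *Cfd* calls were lost in 4 of 26 omissions, at 1.34 to 1.46 in Cl19 and 1.00 to 1.64 in 3c3. No d0 array measured *Cfd*, so it was tested only through other groups, and its p-values are no separate support. *Cfb*, factor B itself, was measured on 1 primary SMC array and on no rMAPC array, and *C5* on none.

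**Figure D3:**
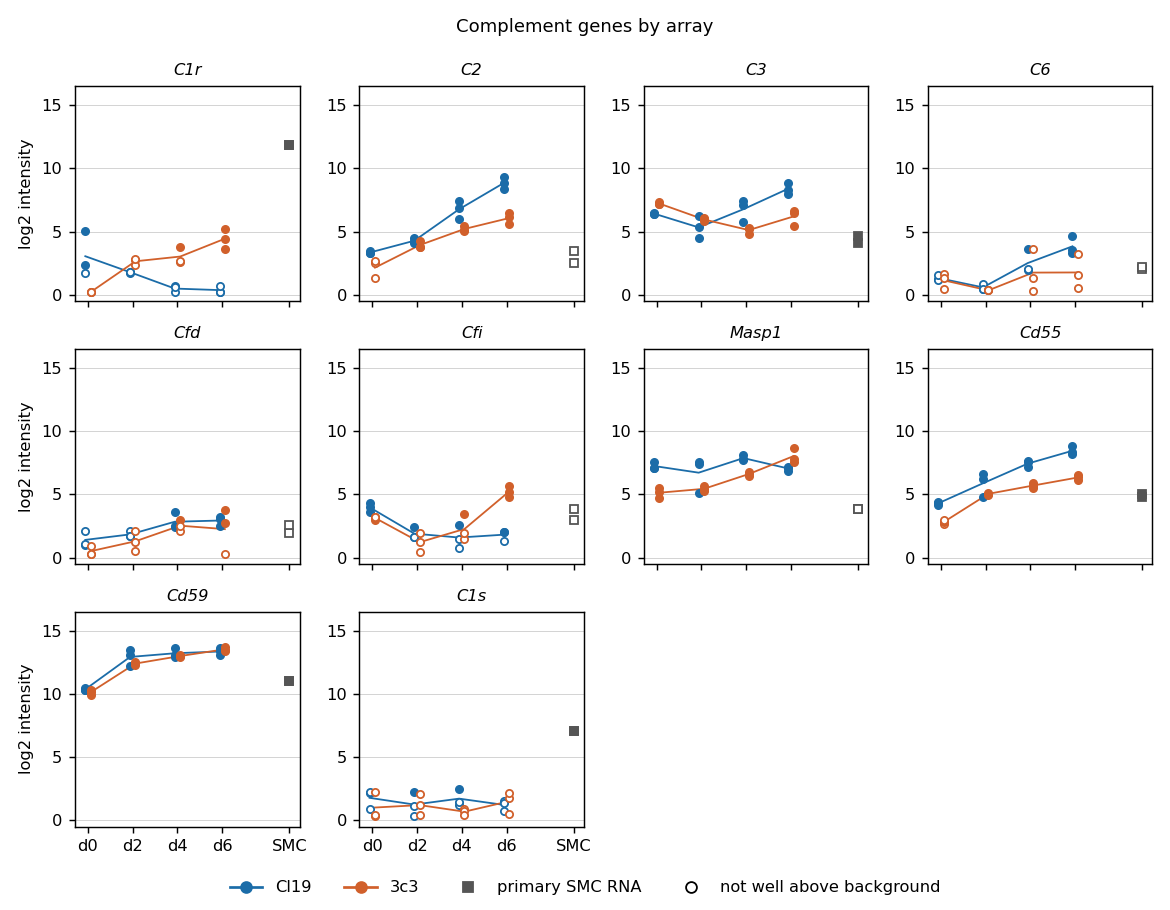
Log2 intensity (vertical axis, quantile-normalized) of 10 complement genes on each array, by day for Cl19 and 3c3 and for the primary SMC RNA (SMC), with points, lines and open symbols as in the plot of clotting genes. *Cd55*, *Cd59* and *C2* climb in both lines, *C3*, *Cfi* and *C1r* part between the lines by d6, and *C1r* and *C1s* are far higher in the primary SMC RNA (11.82 and 11.83, 7.06 and 7.09) than on any rMAPC array.

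On d6, 15 of the 32 genes had a change that differed between the lines, beside 17.4% of all probes. In 12 of them the change was lower in Cl19 and in 3 higher (*A2m*, *C3* and *C2*). With all 42 genes and all 41012 probes, it was lower in Cl19 for 11 and higher for 2, beside 5.11% and 4.30% of all probes. Genes with the same direction and a size that did not differ past the threshold included *F3* (difference 0.54 ± 0.36, adjusted p 0.38), *Plat* (0.39 ± 0.67, 0.82), *Cd55* (0.63 ± 0.43, 0.39) and *Cd59* (−0.41 ± 0.34, 0.52). On d0 the lines already differed for 8 genes. Cl19 was higher for 6 (*F2*, *Procr*, *Serping1*, *C1r*, *Cd55* and *Masp1*; 2.00% of all probes) and lower for 2 (*Fgg* and *A2m*; 1.08%). The *C1r* difference was 0.53 and did not pass with dim values raised to the lowest signal well above background, and that of *Fgg* (−1.12 ± 0.29, adjusted p 0.041) was lost in 11 of 26 omissions of 1 array (up to 0.19). The d0 calls of *A2m* (5 of 26 omissions, adjusted p up to 0.091) and *Procr* (3, up to 0.080) were lost in fewer.

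**Figure D4:**
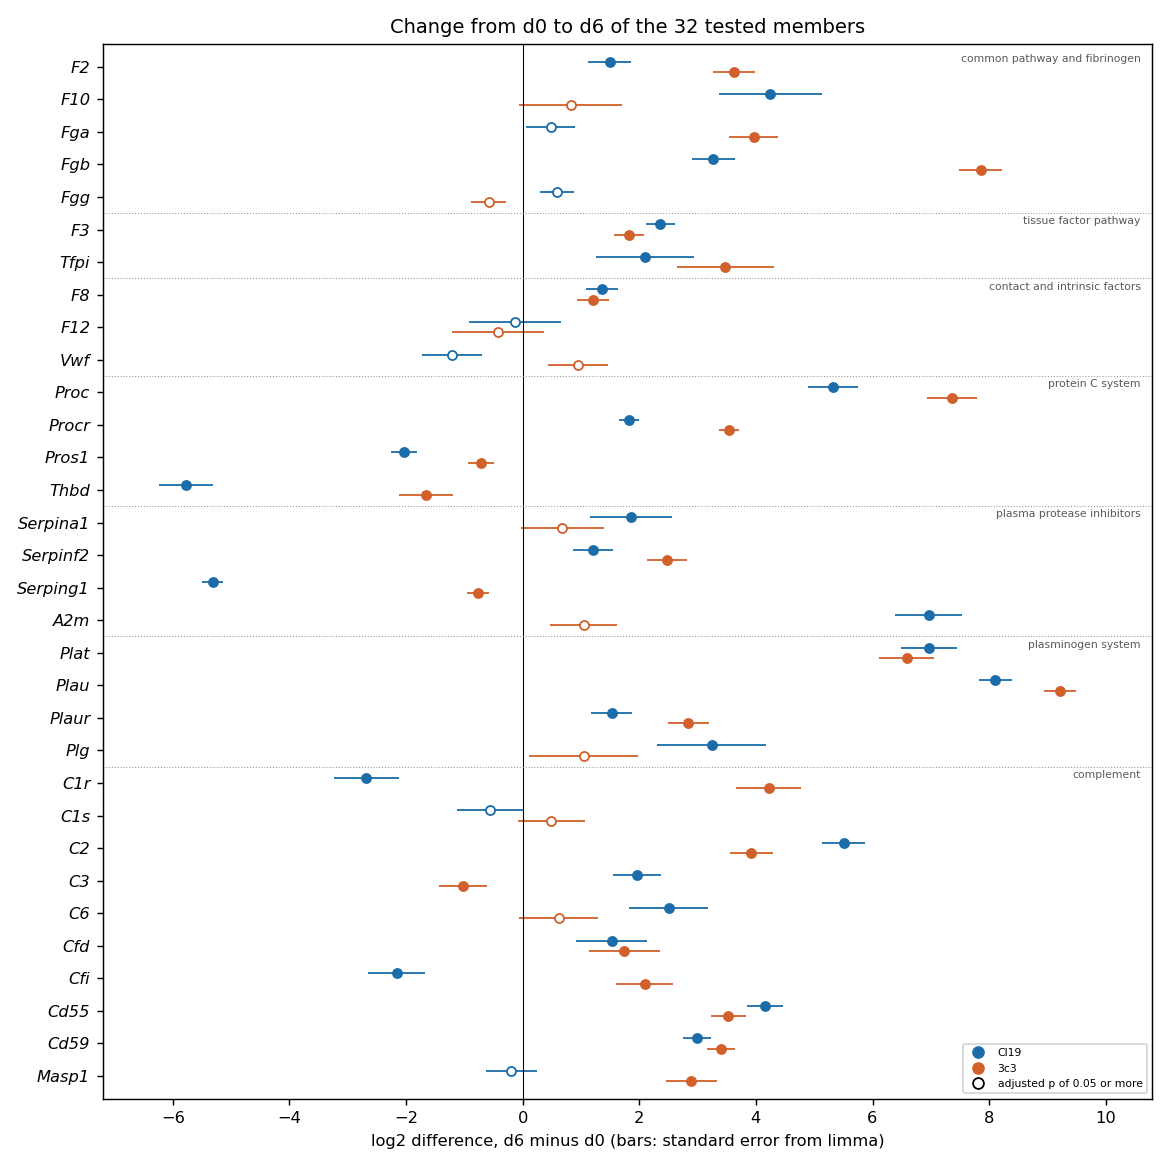
Log2 difference between d6 and d0 (horizontal axis, bars are the standard error) of the 32 tested genes in Cl19 and 3c3, grouped by role, with filled points for an adjusted p below 0.05. *Plau* lies far to the right in both lines, at fitted values of 8.11 and 9.21 with no d0 array measured, *Thbd* and *Serping1* lie far to the left in Cl19, and *A2m*, *C3*, *C1r*, *Cfi* and *Masp1* show the lines well apart.

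The primary SMC RNA stood below the differentiated cells for most of the genes. Against Cl19 on d6, 21 genes were lower and 5 higher, beside 38.6% and 32.8% of all probes, and against 3c3 on d6, 23 were lower and 3 higher, beside 38.1% and 33.4%. The median difference of the 32 genes was −2.94 and −2.33, and that of all tested probes −0.13 in both comparisons, whereas in the deposited values without normalization between arrays the median of all probes was −2.17 and −2.09. Neither primary SMC array measured *F2*, *F10*, *Fga*, *Fgb*, *Fgg*, *Proc*, *Serpinf2*, *Plau*, *Plg*, *C2*, *A2m* or *Masp1*. The d6 cells were thus higher by at least 46.6-fold (Cl19) and 59.3-fold (3c3) for *F2*, 70.1-fold and 174-fold for *Proc*, 41.3-fold and 73.7-fold for *Plau*, and 3.21-fold and 32.6-fold for *Fgb*.

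Genes measured in both sources also differed. The 2 primary SMC arrays may hold 1 RNA, so the p-values below do not measure the spread between separate smooth muscle samples. *F3* was at 9.94 and 9.99 in primary SMC, 4.70 ± 0.28 below Cl19 d6 (adjusted p 1.6e-11) and 4.31 ± 0.28 below 3c3 d6 (5.9e-11), and under every rMAPC array of every day. *Plat* was at 5.44 and 5.34, between the d0 and d6 levels of both lines. *C1r* was at 11.82 and 11.83, at least 921-fold above Cl19 d6 and 7.38 ± 0.63 above 3c3 d6 (2.6e-09), and *C1s* at 7.06 and 7.09, at least 34.3-fold and 18.5-fold above. *Serping1*, the inhibitor of both, was at 8.09 and 8.04, which was 2.32 ± 0.21 above Cl19 d6 and 0.65 ± 0.21 above 3c3 d6 (4.7e-09 and 0.0084), but in the deposited values without normalization those differences were −0.15 and −1.68. *Thbd* was at 9.69 and 9.67, 3.18 ± 0.51 above Cl19 d6 (1.7e-05; 0.72 with an adjusted p of 0.19 in the deposited values) and 1.22 below 3c3 d6 (−1.22 ± 0.51, 0.041; lost in 4 of 26 omissions, adjusted p up to 0.18, and with slide as a random block, 0.0608). *Cfi*, measured on neither primary SMC array, had a fitted difference from Cl19 d6 of 1.61 that turned to −0.27 in the deposited values.

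Another 56 genes of these pathways were looked up as a second list, of which 51 had a probe and 29 were tested. On d6 there were 14 rises and 5 falls in Cl19, beside 22.0% and 30.3% of all probes, and 12 rises and 6 falls in 3c3, beside 19.7% and 28.6%. Their median changes were 0.34 and 0.58, beside −0.20 and −0.21 over all tested probes. Both lines passed for 15 of them, 9 higher in both, 4 lower in both and 2 opposite, again without a count over all probes beside it. Among the larger shared rises were those of *Habp2* (a plasma protease that cuts factor VII; 2.67 ± 0.51 and 5.78 ± 0.51), *Clu* (clusterin, an inhibitor of the membrane attack complex; 2.67 ± 0.36 and 3.36 ± 0.36) and *St14* (matriptase, an epithelial surface protease; 2.34 ± 0.26 and 2.70 ± 0.26). The 4 largest shared falls were those of *C4bpb* (a chain of the C4b-binding protein that carries protein S; −3.06 ± 0.28 and −1.31 ± 0.28), *Mcfd2* (−1.34 ± 0.17 and −0.88 ± 0.17) and *Lman1* (−1.06 ± 0.17 and −0.75 ± 0.17), whose products together ferry factors V and VIII out of the endoplasmic reticulum, and *C1qbp* (a mitochondrial protein that binds C1q; −0.92 ± 0.11 and −1.07 ± 0.11). *Serpine2* (protease nexin 1, which inhibits thrombin and urokinase) was opposite in the lines, at 2.48 ± 0.46 in Cl19 and −2.62 ± 0.46 in 3c3.

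Markers of the cell types that make these proteins moved over the same days. Of 10 endoderm and hepatocyte markers, 9 were tested and 5 rose in each line on d6, among them *Afp* (7.10 ± 0.88 in Cl19 and 6.74 ± 0.88 in 3c3) and *Ttr* (6.83 ± 0.89 and 7.89 ± 0.89), while *Sox17* and *Gata6* fell in both, *Gata4* fell in Cl19, and *Alb*, the defining hepatocyte product, was measured on no array. The log2 of their summed intensity was 15.10 to 15.22 on d0 and 14.62 to 15.60 on d6 in Cl19, 15.13 to 15.31 and 15.19 to 15.45 in 3c3, and 10.30 to 10.34 in primary SMC. Of 7 smooth muscle markers, 5 of the 6 with a probe rose in each line, and their sum went from 10.84 to 11.12 on d0 to 15.90 to 16.16 on d6 in Cl19 and from 10.48 to 10.71 to 14.82 to 15.49 in 3c3. Of 7 endothelial markers, 4 of 6 tested fell in Cl19 and 1 rose and 1 fell in 3c3, and the sum went from 7.64 to 7.95 on d0 to 4.62 to 5.58 on d6 in Cl19 and from 7.14 to 7.23 to 7.12 to 7.28 in 3c3, beside the falls of *Thbd*. Of 7 leukocyte markers, *Ptprc* was measured on 1 rMAPC array and *Itgam* on none, while *Lyz2* rose in both lines, *Csf1r* rose in 3c3 and *Cd14* fell in Cl19, with sums of 7.76 to 8.18 on d0 and 7.80 to 8.13 on d6 in Cl19 and of 7.84 to 8.12 and 9.75 to 11.03 in 3c3. Of 5 platelet markers, *Ppbp* alone was tested and rose in both lines, and *Pf4* and *Gp1ba* were measured on no array. Of 5 fibroblast markers, 4 rose in Cl19 and 1 in 3c3, and *Pdgfra* fell in both. In primary SMC the sums were 16.64 to 16.67 for fibroblast, 16.52 to 16.55 for smooth muscle and 9.81 to 9.88 for leukocyte markers. Those of endothelial and platelet markers were 5.02 to 5.48 and 4.93 to 5.78 there. The part of these markers in the changes above was not tested.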

How the data were processed

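Agilent whole rat genome arrays, 1 colour, were run on RNA of 26 samples in 9 groups. Per the file headers, Agilent Feature Extraction 10.1.1.1 gave each feature a background-subtracted intensity, flags and a call of well above background. The table deposited by the authors holds the log2 of the same intensity and is not normalized between arrays.

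Here log2 intensities were quantile-normalized over the 26 arrays, control and outlier-flagged features were left out, and the features of a probe were averaged. Probes with a signal well above background on all arrays of some group were tested (24442 of 41012). 1 limma model (limma 3.58.1, R 4.3.3) over the 9 groups gave all contrasts, with Benjamini-Hochberg adjustment over these probes and a threshold of 0.05, and the step was tested on simulated data. Per-array values are given for the 28 genes past the threshold on d6 in at least 1 line, by role. A lower bound uses, for the dim group, per array, the higher of the probe's own signal and the lowest among probes well above background. The genes, roles and lists of other genes and markers were chosen with earlier results of these data known. Alternatives were another scaling, background correction, floor, filter, probe rule and scale, slide as a block, 1 line alone, Student's t-test, and leaving out each array or the slide of 3c3 replicate 3. The methods name that t-test for comparisons in general. For the arrays the paper selected probes by the area between a time course and its d0 level, which limma replaced here. Promoters are from RefSeq (GRCr8). The precision is limited by 3 arrays per group, and 2 for primary SMC. A gene of the second list that the naming rule selects is not reported here.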

Additional observations from a re-analysis of the deposited data

Results flagged for a closer look

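The change from d0 differed between the lines, by the interaction contrast of the limma fit (Cl19 change minus 3c3 change), for 15 genes on d6. It was −2.13 for *F2*, −3.48 for *Fga*, −4.59 for *Fgb*, −2.04 for *Proc*, −1.72 for *Procr* and −1.32 for *Pros1*. It was −4.55 for *Serping1*, −4.11 for *Thbd*, −2.17 for *Vwf*, −6.90 for *C1r*, −4.25 for *Cfi* and −3.09 for *Masp1*. It was positive for *C2* (1.58), *C3* (2.99) and *A2m* (5.91). On d2 it passed for *Serping1* (−2.60) and *A2m* (5.19), which were −2.47 and 5.98 without the Cl19 d2 replicate 1 array. Each change was taken within a line, but each line had its own slides and scan day. Line and scan day therefore cannot be told apart in these differences of changes either.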

How the results depend on the processing

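Over 207 called changes of single genes, leaving out 1 array in turn lost the call in 163 of 5382 refits and reversed none, and the other settings lost it in 151 of 2313 and reversed 4. The reversals were *C1r* on d2 in 3c3 (−0.0055, dim values raised to the lowest signal well above background) and, in the deposited table without normalization between arrays, *Serping1* in primary SMC against Cl19 d6 (−0.15) and 3c3 d6 (−1.68) and *Cfi* against Cl19 d6 (−0.27). In that table the counts of genes were 3 lower on d2 and 2 lower on d6 in 3c3, and 2 higher in primary SMC than Cl19 d6. By Student's t-test after Benjamini-Hochberg adjustment 9 genes were higher and 2 lower on d2 in Cl19, and unadjusted 11 were higher and 5 lower in Cl19 than 3c3 on d0. On d0 the lower count was 0 with normexp background correction and 1 without the filter. Without the slide of 3c3 replicate 3, 2 genes were lower on d6 in 3c3, and on d0 2 were higher and 0 lower in Cl19. With 1 array left out, the counts were 3 to 6 lower on d2 in 3c3, 2 to 4 lower on d6 in 3c3, and on d0 4 to 7 higher and 0 to 2 lower in Cl19. The causes were not tested.

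Arrays with the same replicate number in a line lay on 1 slide, and their deviations from the group means correlated above 0.1 in 18 of 18 pairs of 3c3 and 16 of 18 of Cl19. With slide as a fixed replicate block, 22 genes were higher and 6 lower on d6 in Cl19, 19 and 4 in 3c3, and 20 in place of 15 differed between the lines. Genes near background are limited by signal, and only a bound could be given for them.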
